A study of Mus musculus with 22 samples.

Results

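A block of mouse chromosome 7 around Pop4 was examined by array comparative genomic hybridisation in DNA of Atm-deficient thymocytes. Its members are the 228 probes of an Agilent mouse CGH array whose midpoints lie between 33.5 and 37.5 Mb on chromosome 7 in the coordinates of the array files, out of 220065 probes with an autosomal position and 235402 probes in all. The block was picked because log2 ratios of these same arrays showed adjacent gains and losses over Pop4, Zfp619 and 1600014C10Rik in both groups of mice, so all ratios of the block are given as a description. Atm is a kinase that cells activate at broken DNA, and every mouse of the study lacked it. Of the 22 mice, 8 had a thymic T-cell lymphoma and 14 had no visible tumour, and thymocyte DNA of each (Cy5) was hybridised to 1 array together with wildtype thymocyte DNA (Cy3). The labels describe the mice as untreated, but give no strain, age or sex, nor the altered part of Atm. The labels do not tell whether the same wildtype DNA served on every array. With the same dyes on all arrays, an effect of dye and one of genotype cannot be told apart. DNA from another tissue of the same mice was not analysed here, so inherited variants and changes that arose in the thymocytes cannot be told apart either.

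Copy number variants are stretches of DNA that some individuals or strains carry in more or fewer copies than others, and they are often found where related sequences lie close to each other, as in clusters of zinc finger genes. On an array they appear in every tissue of a carrier, and they also appear when the carrier is the reference. A change that arises in a tumour is instead limited to the tumour cells. An array probe reports hybridised DNA only, so a difference in the sequence under the probe can lower a signal as a lost copy does.

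The array files name 22 genes in the block, and 108 of the 228 probes carry no gene name. In chromosome order the main named genes are Tshz3 and Zfp536, both zinc finger transcription factor genes, Uri1, which encodes a prefoldin-like chaperone, Ccne1, which encodes cyclin E1 and promotes entry into DNA replication, and 1600014C10Rik, the mouse counterpart of the human gene C19orf12, whose product is a membrane protein of mitochondria and endoplasmic reticulum. They are followed by Plekhf1, which encodes an endosomal and lysosomal protein with PH and FYVE domains, Pop4, which encodes a subunit of the RNA-cutting enzymes RNase P and RNase MRP, the zinc finger gene Zfp619, and Vstm2b, an immunoglobulin-domain gene. AK181724 is a name that the files give to 21 probes on both sides of 1600014C10Rik.

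Variation in the block was concentrated in 3 runs of probes, and the probe sequences of these runs are shown because all later values rest on them. A probe was called variable where the standard deviation (SD) of its log2 ratio over the 22 arrays was 0.7 or more. A stretch is a run of at least 3 variable probes with at most 1 other probe between neighbours and with similar profiles (r of 0.5 or more). The first stretch holds 5 probes from 35073245 to 35094881, named 1600014C10Rik or AK181724, and is called the 1600014C10Rik stretch. Sequences are printed 5′ to 3′ as the array files give them, and the sources used here give neither their strand nor the genome build of the coordinates.
chr7:35073245-35073304: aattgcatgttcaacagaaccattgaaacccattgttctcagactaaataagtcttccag
chr7:35077540-35077599: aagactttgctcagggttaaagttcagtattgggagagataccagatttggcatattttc
chr7:35086292-35086351: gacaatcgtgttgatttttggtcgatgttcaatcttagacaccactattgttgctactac
chr7:35090238-35090297: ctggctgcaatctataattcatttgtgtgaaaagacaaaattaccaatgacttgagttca
chr7:35094822-35094881: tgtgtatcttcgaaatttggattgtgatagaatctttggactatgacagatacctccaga

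The second stretch, called the stretch beyond Pop4, holds 3 probes with no gene name from 35201499 to 35259523, after the last Pop4 probe (35164378 to 35164437).
chr7:35201499-35201558: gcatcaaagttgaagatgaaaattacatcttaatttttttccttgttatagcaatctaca
chr7:35233039-35233098: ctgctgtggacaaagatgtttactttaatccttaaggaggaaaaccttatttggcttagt
chr7:35259464-35259523: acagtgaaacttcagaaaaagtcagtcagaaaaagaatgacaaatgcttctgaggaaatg

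The third, called the stretch before Zfp619, holds 3 probes with no gene name from 35746365 to 35785889, before the first Zfp619 probe (35800388 to 35800447). The probe at 35641485, outside any stretch, is printed last because its ratios followed those of the first stretch in 12 of 13 arrays, as described below.
chr7:35746365-35746424: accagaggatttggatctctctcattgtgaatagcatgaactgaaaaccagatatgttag
chr7:35772650-35772709: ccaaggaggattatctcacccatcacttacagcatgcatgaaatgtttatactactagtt
chr7:35785830-35785889: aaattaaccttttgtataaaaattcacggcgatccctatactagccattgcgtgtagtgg
chr7:35641485-35641531: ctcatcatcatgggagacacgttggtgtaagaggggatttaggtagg

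Some arrays stood apart over the whole genome. Noise per array, the spread of differences between neighbouring probes, was 0.15 to 0.37 in the lymphoma group and 0.13 to 0.55 in the no-lymphoma group. In 8 of 231 pairs of arrays r over autosomal probes lay under -0.3, the lowest being -0.48, and each of these pairs held an array labelled no-lymphoma 3, 4 or 9. Those 3 arrays correlated with each other at 0.82 or more. The labels give the dyes, so the labelled direction was kept, and values with the sign of these 3 arrays turned are given as well. The 1 Atm probe with a large shift read 0.95 to 1.32 in the lymphoma group and -1.08 to 1.69 in the no-lymphoma group, with 5 arrays under 0.5, labelled no-lymphoma 1, 3, 4, 5 and 6. At this probe the 3 arrays whose sign is turned were split. Those labelled no-lymphoma 3 and 4 read -0.72 and -0.63, and the one labelled 9 read 1.69. The lowest value, -1.08, was that of the array labelled no-lymphoma 1, which was not turned. Scan days in the file headers gave 6 batches. Batch 2 consisted of the arrays labelled no-lymphoma 1, 3 and 4, and batch 4 only those labelled no-lymphoma 8, 9, 10 and 12.

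Most of the block was as quiet as the rest of the genome, and the variable probes lay close together. The median SD over arrays was 0.25 for the 228 members and 0.26 for all autosomal probes. Variable probes made up 18 of the 228 members (7.89%), against 1.94% of autosomal probes. Of the 18, 15 lay among the 54 members between 35 and 36 Mb, and the outermost reached from 34905790 to 36491333. Values of 1 or more in at least 2 arrays together with values of -1 or less in at least 2 others occurred at 16 members (7.02%), against 0.534% of autosomal probes, and 10 of the 16 were stretch probes. The block was selected on these ratios, so nothing is read from these shares.

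**Figure D1:**
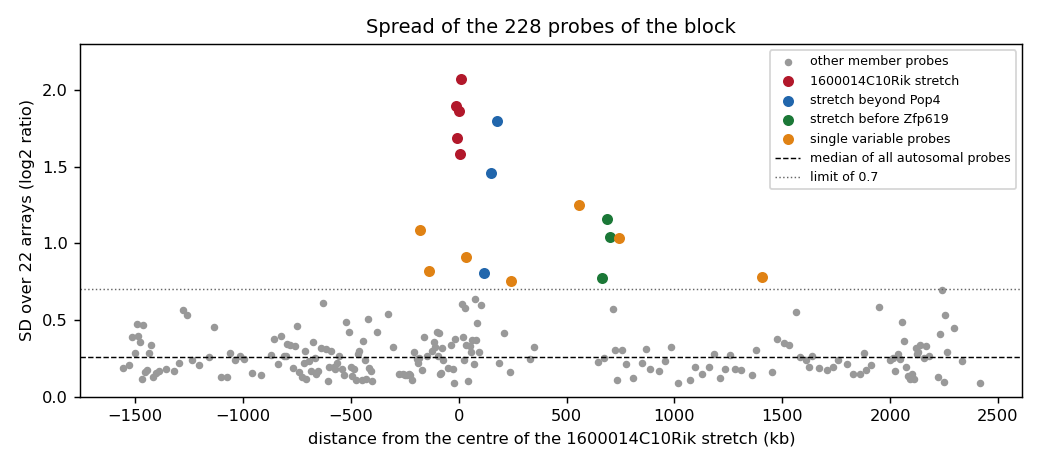
SD of the log2 ratio over 22 arrays (vertical axis) for each of the 228 probes of the block, against distance from the centre of the 1600014C10Rik stretch in kb (horizontal axis). Coloured points are the 3 stretches and the 7 single variable probes, the dashed line is the autosomal median of 0.26 and the dotted line the limit of 0.7; the 5 probes of the 1600014C10Rik stretch and 2 of the stretch beyond Pop4 stand highest.

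The edges of the first stretch were sharp. The probe before the 1600014C10Rik stretch, at 35068244, had an SD of 0.38, and the first probe within it had one of 1.89. At the other end the last probe had an SD of 2.07 and the next, at 35099983, one of 0.61. The probes on either side of the stretch beyond Pop4 had SDs of 0.60 and 0.22, and those on either side of the stretch before Zfp619 had 0.23 and 0.57. At the limit itself, the probe at 35325981 had an SD of 0.75 and counted as variable, while the probe at 37326614 had 0.70, just under the limit, and did not.

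The ratio of the 1600014C10Rik stretch ranged over 7.32 log2 units as labelled, and over 4.74 (-3.73 to 1.01) with the sign of the arrays labelled no-lymphoma 3, 4 and 9 turned. Its lowest values occurred in both groups. The mean of its 5 probes was -3.40 in lymphoma mouse 3 and -3.73 in lymphoma mouse 5, against -2.92 and -3.01 in the arrays labelled no-lymphoma 5 and 6. As linear ratios over the wildtype signal these were 0.0951 and 0.0755 in the lymphoma mice, against 0.132 and 0.124 in the arrays labelled no-lymphoma. These 4 arrays thus gave Atm-deficient signals far below the wildtype signal, and no other array lay under -0.87.

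A milder lowering was seen at -0.52 in lymphoma mouse 4, -0.87 in lymphoma mouse 7 and -0.63 in no-lymphoma mouse 2. Values between -0.5 and 0.5 were read in 4 lymphoma arrays (-0.19 to 0.39) and in 5 no-lymphoma arrays (-0.00 to 0.20). Values above 0.5 were read in 0 of 8 lymphoma arrays and in 6 of 14 no-lymphoma arrays, or in 0 of 8 and 3 of 14 with the sign of those 3 arrays turned. As labelled, the 6 arrays were all of scan batches 2 and 4, which held no lymphoma array.

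Of those 6, 4 stood at 0.98, 0.93, 1.07 and 1.01 in the arrays labelled no-lymphoma 1, 8, 9 and 12, which are linear ratios of 1.97, 1.90, 2.11 and 2.02. These sizes depend on the background treatment: with normexp correction of the spot signals the same arrays stood at 2.54, 2.40, 1.57 and 1.33 (linear ratios 5.81, 5.26, 2.96 and 2.52). The other 2, labelled no-lymphoma 3 and 4, stood at 2.73 and 3.59, which are linear ratios of 6.64 and 12.1. The lymphoma values (lowest -3.73, median -0.35, highest 0.39) therefore lay within the range of the no-lymphoma values (lowest -3.01, median 0.17, highest 3.59) except at the low end.

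The 5 probes moved as a unit in nearly all arrays. Their SD within an array was 0.08 to 0.62 and was 0.31 and 0.54 in lymphoma mice 3 and 5, against means of over 3 in size. With normexp background correction of the spot signals in place of the deposited processed signals, the stretch ranged from -3.53 to 3.34, and single arrays moved. Lymphoma mouse 5 stood at -2.17 with normexp, against -3.73 without it. The array labelled no-lymphoma 6 stood at -0.46, against -3.01, and the one labelled 3 at 1.23, against 2.73. With normexp 3 arrays lay at -1 or less and 6 at 1 or more, against 4 and 4.

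**Figure D2:**
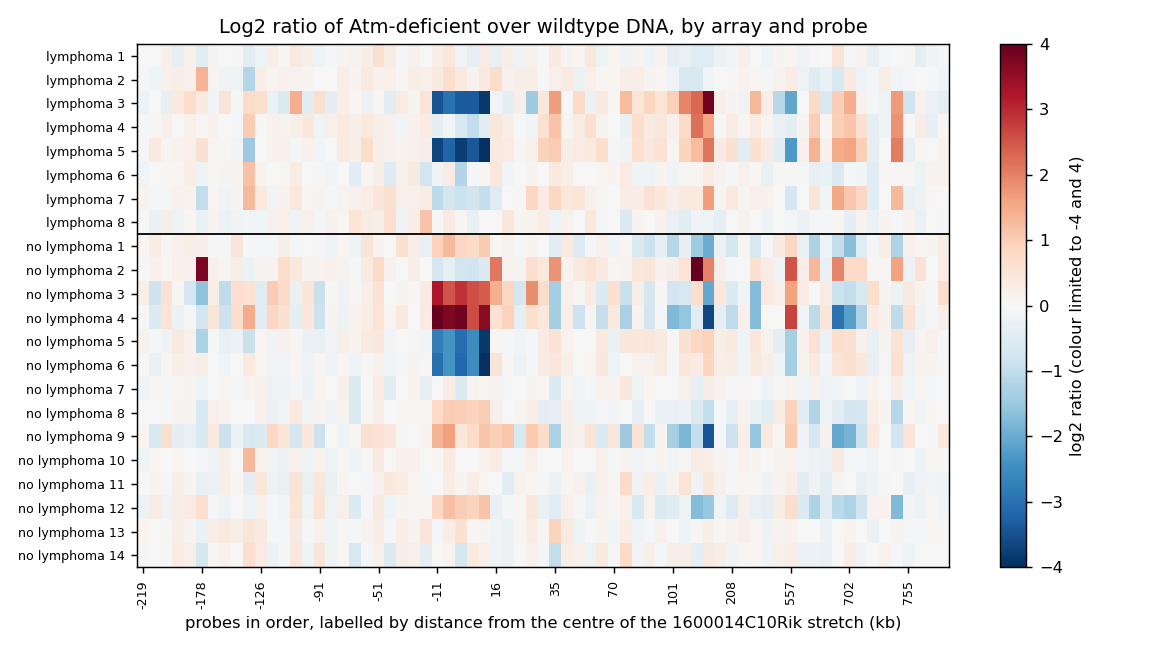
Log2 ratio of Atm-deficient over wildtype DNA (colour, limited to -4 and 4) at the probes around the stretches (columns in chromosome order, labelled by distance in kb) in each array (rows, lymphoma above no lymphoma). The 1600014C10Rik stretch is blue in lymphoma mice 3 and 5 and in the arrays labelled no-lymphoma 5 and 6 and red in those labelled 3 and 4, and the probes to its right mostly carry the opposite colour.

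The signals of the separate channels showed which DNA was low. A channel level is the log2 processed signal minus the median of that channel over autosomal probes, so 0 is the typical probe of the array. In Atm-deficient DNA the level of the 1600014C10Rik stretch was -0.18 and -0.38 in lymphoma mice 3 and 5, and -0.53 and -0.58 in the arrays labelled no-lymphoma 5 and 6. The wildtype DNA on the same 4 arrays stood at 3.19, 3.36, 2.40 and 2.43. On the arrays labelled no-lymphoma 3 and 4 it was the wildtype DNA that was low, at -0.10 and -0.16, while the Atm-deficient DNA stood at 2.68 and 3.46. In these 2 arrays the high ratio therefore came with a low wildtype signal, and the Atm-deficient level was within the range of the others. Both are among the arrays that run against the rest over the genome, and if their dyes were the reverse of the labels, the low DNA would be the Atm-deficient one. With the sign of the arrays labelled no-lymphoma 3, 4 and 9 turned, 1 array stood at 1 or more and 7 at -1 or less, against 4 and 4 as labelled.

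Taking both channels, the 44 levels fell into separate classes. The 6 low levels ended at -0.10 and the next level was 2.40, a gap of 2.50, whereas no other gap exceeded 0.20. Of the 38 levels above the gap, 20 lay between 2 and 2.9 and 18 at 2.9 or more, with a gap from 2.82 to 2.99 at the limit of 2.9, which was set after the levels were seen. The low levels fell between the 24.1 and 44.4 percentiles of autosomal probes of their channel, and all others were at the 99.7 percentile or above. All 5 probes were well above background in both channels of all 22 arrays. The stretch was thus a typical signal in 6 of the 44 channel signals and among the brightest of the array in the other 38. Some wildtype signals may come from the same DNA, so these are counts of channel signals and not of separate DNAs.

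**Figure D3:**
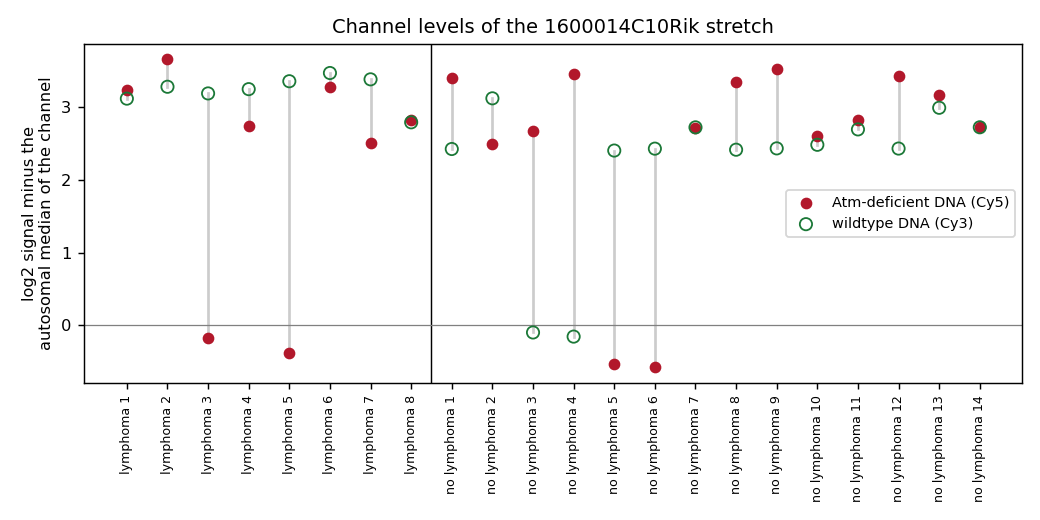
Level of the 1600014C10Rik stretch (log2 signal minus the autosomal median of the channel, vertical axis) in Atm-deficient DNA (filled red) and wildtype DNA (open green) on each array (horizontal axis, lymphoma left of the line, no lymphoma right). Low levels near 0 occur in the Atm-deficient DNA of 4 arrays, 2 of each group, and in the wildtype DNA of 2 arrays.

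Levels of 2.9 or more against levels of 2 to 2.9 separated the arrays with ratios near 1 or near -0.5 to -0.9. In the arrays labelled no-lymphoma 1, 8, 9 and 12 the Atm-deficient DNA stood at 3.40, 3.34, 3.53 and 3.44 and the wildtype DNA at 2.43, 2.42, 2.43 and 2.43. In lymphoma mice 4 and 7 the Atm-deficient DNA stood at 2.74 and 2.51 and the wildtype DNA at 3.25 and 3.38, and in no-lymphoma mouse 2 they stood at 2.49 and 3.12. In the other 9 arrays, where the ratio was between -0.5 and 0.5, both channels were on 1 side of the limit of 2.9.

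The wildtype signal of the stretch also differed between the arrays of the 2 groups. It averaged 3.23 ± 0.21 on lymphoma arrays (SD, n = 8), with 7 of 8 at 2.9 or more, and 2.22 ± 1.02 on no-lymphoma arrays (SD, n = 14), with 2 of 14 at 2.9 or more. The Atm-deficient signal averaged 2.21 ± 1.58 on lymphoma arrays and 2.52 ± 1.35 on no-lymphoma arrays, with 3 of 8 and 6 of 14 at 2.9 or more. The difference between the groups was -0.31 in the Atm-deficient channel and 1.01 in the wildtype channel. Over all arrays the wildtype level of the stretch had an SD of 0.95, against a median of 0.40 and a 95th percentile of 1.25 over the 618 single autosomal probes that are as bright (median level of 2 or more). Its highest and lowest wildtype signals differed 12.4-fold. The low end came from the arrays labelled no-lymphoma 3 and 4 (-0.10 and -0.16), which run against the rest over the genome. All other wildtype levels lay between 2.40 and 3.47. The no-lymphoma mean, the SD of 0.95 and the 12.4-fold range therefore rest in part on those arrays. Group medians of the wildtype level were 3.27 on lymphoma and 2.43 on no-lymphoma arrays.

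Wildtype levels followed the scan day in part. They were 3.12 to 3.25 on the 4 arrays of batch 1, 2.42 to 2.48 on the 4 of batch 4, 2.70 to 2.79 on the 4 of batch 5 and 2.99 to 3.47 on the 3 of batch 6. In batch 3 they were 3.28 and 3.36 on the arrays of lymphoma mice 2 and 5, against 2.40 and 2.43 on those labelled no-lymphoma 5 and 6. In batch 2 they were 2.43, -0.10 and -0.16 on the arrays labelled no-lymphoma 1, 3 and 4. The part of the scan day, or of the wildtype DNA used that day, in the ratios was not tested.

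The stretch beyond Pop4 carried the opposite pattern. Its mean log2 ratio was 2.70 in lymphoma mouse 3, 1.51 in mouse 4, 1.42 in mouse 5 and 0.81 in mouse 7, and between -0.45 and 0.14 in lymphoma mice 1, 2, 6 and 8. In the no-lymphoma group it was 2.55 in no-lymphoma mouse 2 and 0.79 and 0.55 in the arrays labelled 5 and 6. It was -1.25, -0.67, -1.87, -0.60, -2.06 and -1.14 in those labelled 1, 3, 4, 8, 9 and 12, and between 0.03 and 0.29 in the remaining 5. High values thus occurred in both groups, and all values under -0.5 came from no-lymphoma arrays. These low arrays were all of scan batches 2 and 4, which held no lymphoma array, so group and scan day cannot be told apart there. Among them, the arrays labelled no-lymphoma 3, 4 and 9 run against the rest over the genome.

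This stretch was dim in most channel signals, at the 0.309 to 33.8 percentiles of autosomal probes. Its 3 probes differed in SD over arrays (0.80, 1.46 and 1.80), and its level ran from -3.16 to -0.37 in Atm-deficient DNA and from -4.67 to -0.29 in wildtype DNA. In lymphoma mouse 1 only 1 of the 3 probes was well above background in each channel. In the array labelled no-lymphoma 1 it was 2 in the Atm-deficient channel, and in no-lymphoma mouse 2 it was 2 in the wildtype channel. The lowest level, -4.67, was that of the wildtype DNA on the array of no-lymphoma mouse 2.

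The stretch before Zfp619 followed the stretch beyond Pop4. It stood at 1.08, 1.49 and 1.05 in lymphoma mice 3, 5 and 7, just past 1 in lymphoma mouse 4, and between -0.31 and 0.16 in lymphoma mice 1, 2, 6 and 8. In the no-lymphoma group it stood at 1.36 in no-lymphoma mouse 2 and at 0.64 and 0.50 in the arrays labelled 5 and 6. It stood at -1.32, -0.60, -2.06, -0.79, -1.53 and -1.19 in those labelled 1, 3, 4, 8, 9 and 12, and between -0.01 and 0.04 in the remaining 5. The same arrays as in the stretch beyond Pop4 were high, low and near 0. All 3 probes were well above background in both channels of every array.

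Across the block the 3 stretches therefore took opposite signs in the same arrays. In 13 arrays, 4 of the lymphoma and 9 of the no-lymphoma group, the 1600014C10Rik stretch lay beyond 0.5 in size. In 13 of these 13 both other stretches also lay beyond 0.5, with the opposite sign. In the 9 arrays where the first stretch lay within 0.5, the stretch beyond Pop4 stayed between -0.45 and 0.29 and the stretch before Zfp619 between -0.31 and 0.16. With normexp only the sign was counted in the same 13 arrays, with no limit of 0.5. The opposite sign was found in 13 of 13 arrays for the stretch before Zfp619, and in 9 of 13 for the dim stretch beyond Pop4. Some of these normexp values were near 0, such as 0.03 in the array labelled no-lymphoma 6 and 0.05 in lymphoma mouse 7 (stretch before Zfp619). The first stretch was itself within 0.5 in lymphoma mouse 4 (-0.40), no-lymphoma mouse 2 (-0.27) and the array labelled no-lymphoma 6 (-0.46). Turning the sign of an array turns all 3 stretches together, so it leaves these counts as they are.

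The inverse relation was present within single channels as well. Where the level of the 1600014C10Rik stretch was low (6 channel signals, 4 Atm-deficient and 2 wildtype), the stretch before Zfp619 stood between -0.26 and 0.12. Where the level of the first was 2 to 2.9 (20 channel signals), the stretch before Zfp619 stood between -1.91 and -0.39. Where it was 2.9 or more (18 channel signals), the stretch before Zfp619 stood between -2.39 and -1.18. The low class did not overlap with the other 2 classes, which overlapped with each other. For the stretch beyond Pop4 the ranges were -0.94 to -0.29, -3.16 to -1.07 and -4.67 to -1.67 in the same order. A DNA with a typical signal at 1600014C10Rik thus had the strongest signals at the other 2 stretches, in either channel as labelled. The 2 low wildtype signals were those of the arrays labelled no-lymphoma 3 and 4, which run against the rest over the genome. If the dyes of those arrays were the reverse of the labels, all 6 low signals would be Atm-deficient.

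**Figure D4:**
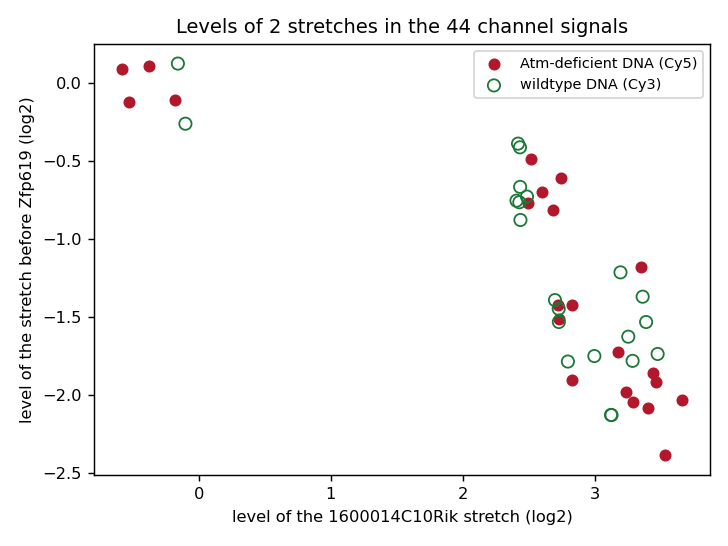
Level of the stretch before Zfp619 (vertical axis) against that of the 1600014C10Rik stretch (horizontal axis), both as log2 signal minus the autosomal median of the channel, for the Atm-deficient DNA (filled red) and wildtype DNA (open green) of the 22 arrays. The 6 channel signals low in the 1600014C10Rik stretch lie at -0.26 to 0.12 on the vertical axis, above all 38 others.

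Group means differed, but the differences did not keep their direction within scan batches. The 1600014C10Rik stretch averaged -1.02 ± 1.62 in the lymphoma group and 0.30 ± 1.78 in the no-lymphoma group (SD, n = 8 and 14), a difference of -1.32. Blocked by scan batch it was 0.10, and within batches 1, 3, 5 and 6 it was -0.64, 1.30, -0.03 and -0.72. Those batches held 3, 2, 1 and 2 lymphoma arrays and 1, 2, 3 and 1 no-lymphoma arrays, so each within-batch value rests on few mice. Without the arrays labelled no-lymphoma 3, 4 and 9 the difference was -0.73, and with their sign turned -0.27. With normexp it was -1.40. Each of these differences is smaller than the SD within the groups, and the groups overlap.

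The stretch beyond Pop4 averaged 0.68 ± 1.13 in the lymphoma group and -0.22 ± 1.19 in the no-lymphoma group, a difference of 0.90. With the batch block it was -0.36, and within batches 1, 3, 5 and 6 it was -1.28, -0.18, -0.41 and 0.44. The stretch before Zfp619 averaged 0.51 ± 0.72 in the lymphoma group and -0.35 ± 0.94 in the no-lymphoma group, a difference of 0.86, or -0.10 with the block and -0.62, 0.05, -0.15 and 0.33 within the batches. Without the arrays labelled no-lymphoma 3, 4 and 9 these differences were 0.54 and 0.57, and with their sign turned 0.24 and 0.26. With normexp they were 0.11 and 0.14. Batches 2 and 4 held no lymphoma array.

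**Figure D5:**
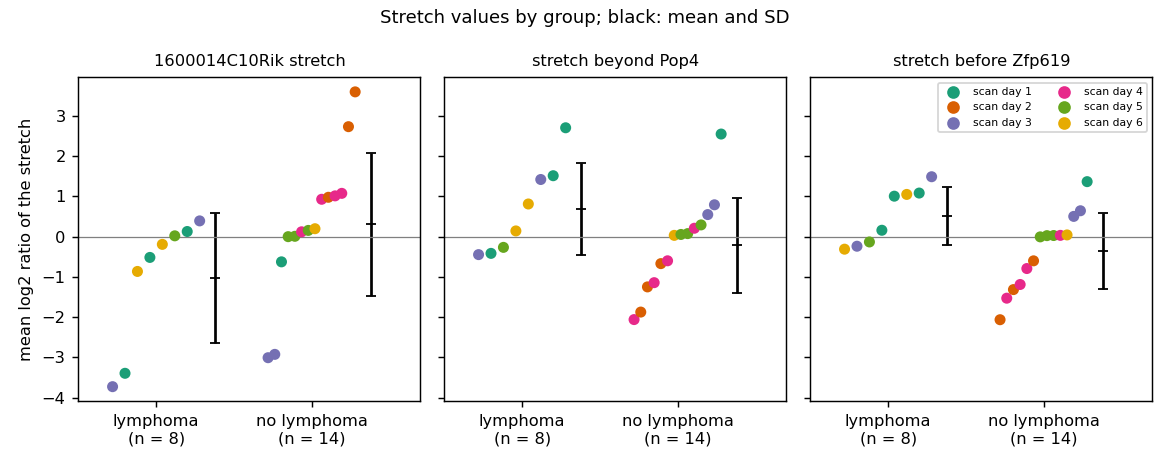
Mean log2 ratio of each stretch (vertical axis) per array, in lymphoma (left, n = 8) and no-lymphoma arrays (right, n = 14), with colours for the 6 scan days and the mean and SD in black. The groups overlap in each stretch, and the values above 0.5 in the first stretch come from scan days 2 and 4, which held no lymphoma array.

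Limma called few probes of the block between the groups, and none of them was variable. At an adjusted p under 0.05, 3 of 228 members were called and all 3 were lower in lymphoma mice, against 3.14% of autosomal probes called in either direction, 2.32% higher and 0.818% lower. The 3 probes carry no gene name, lie at 36755984, 36885883 and 36943235, and differed by -0.27, -0.28 and -0.22 (limma adjusted p = 0.0186, 0.0461 and 0.0312). With scan batch as a fixed term limma called 0 members (6 at an unadjusted p under 0.05), against 1.05% of autosomal probes in that setting. With normexp it called 0 (20 unadjusted), against 2.19%. Before adjustment 34 members had a limma p under 0.05. The share of autosomal probes at this unadjusted limit is not given here, so the unadjusted counts have no background to be set against. Of the 11 stretch probes limma called 0, with 3 at an unadjusted p under 0.05 and a smallest limma adjusted p of 0.135. The block was picked from ratios of these same arrays, so nothing is read from these counts.

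Pop4 itself varied less than the stretch beyond it. The mean of its 2 probes was -0.24 to 0.87 in lymphoma mice, with the highest value in lymphoma mouse 3, and -0.57 to 0.45 in the no-lymphoma group, with the lowest in the array labelled no-lymphoma 4. It averaged 0.21 ± 0.32 and -0.02 ± 0.31 in the 2 groups (SD, n = 8 and 14), which overlap, and the difference of 0.24 had a limma adjusted p of 0.310. Of its 2 probes the one at 35164378 had the opposite sign to the 1600014C10Rik stretch in 10 of the 13 arrays, and the one at 35157686 in 7.

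Plekhf1, between 1600014C10Rik and Pop4, had the sign of the stretch beyond Pop4 at 1 of its 2 probes in the 13 arrays with the first stretch beyond 0.5. The probe at 35119248 read 1.69, 1.13, 1.02 and 0.83 in lymphoma mice 3, 4, 5 and 7. Of the no-lymphoma group, mouse 2 read 1.80, against -1.35, -1.34 and -1.27 in the arrays labelled no-lymphoma 3, 4 and 9. It had the opposite sign to the first stretch in 13 of 13 arrays, while its neighbour at 35118119 did so in 10. In the other 9 arrays the probe at 35119248 did not always follow the stretch beyond Pop4. It read 0.90 and -0.95 in no-lymphoma mice 13 and 14, against 0.03 and 0.07 in that stretch. The gene mean was 0.50 ± 0.42 in lymphoma and -0.03 ± 0.47 in no-lymphoma mice, a difference of 0.53 (limma adjusted p = 0.106).

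Zfp619 was split between its 2 probes. The probe at 35800388, next to the stretch, had the opposite sign to the first stretch in 13 of 13 arrays, and the probe at 35806612 had the same sign in 11 of 13. The gene mean therefore moved little, averaging 0.02 ± 0.19 in lymphoma and -0.11 ± 0.21 in no-lymphoma mice, a difference of 0.13 (limma adjusted p = 0.410). AK034698, on the other side, has a quiet probe at 35758248 (SD 0.25) that lies between variable probes of the stretch.

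1600014C10Rik showed the profile of its stretch, since both of its probes lie in it. It averaged -1.15 ± 1.47 in lymphoma and 0.22 ± 1.68 in no-lymphoma mice, a difference of -1.37 (SE 0.67, limma adjusted p = 0.239). It ranged from -3.59 in lymphoma mouse 5 to 3.24 in the array labelled no-lymphoma 4. Limma called 0 of the 22 genes of the block, against 5.08% of autosomal genes called higher and 1.18% called lower in lymphoma mice. Before adjustment 4 of the 22 had a limma p under 0.05, and the autosomal share at that limit is not given here.

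Most gene means on the side of Ccne1 varied little. Ccne1 ranged from -0.43 to 0.17 over all arrays and Zfp536, with 32 probes, from -0.09 to 0.05. Of the 2 Ccne1 probes, the one at 34993369 read -0.90, -0.85 and -0.87 in the arrays labelled no-lymphoma 3, 4 and 9. It read 0.63 in lymphoma mouse 3. AK039356, between Zfp536 and Uri1 and with 1 probe, ranged from -0.98 to 1.06 (SD 0.51). Uri1 differed by 0.02 between the groups, but 1 of its 8 probes, at 34905790, read 1.36 in lymphoma mouse 2 and 3.81 in no-lymphoma mouse 2, and was lowest, at -1.61, in the array labelled no-lymphoma 3. Tshz3 and Vstm2b ranged from -0.31 to 0.14 and from -0.26 to 0.18. AK005849, after the stretch beyond Pop4, averaged 0.17 ± 0.14 in lymphoma and -0.17 ± 0.38 in no-lymphoma mice, a difference of 0.34 (limma adjusted p = 0.142).

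Some single probes far from the first stretch mostly shared its sign or took the opposite one. The probe at 35641485 read -2.08 and -2.29 in lymphoma mice 3 and 5 and -1.33 and -1.35 in the arrays labelled no-lymphoma 5 and 6. It was highest, at 2.70, in the array labelled no-lymphoma 4. The exception was no-lymphoma mouse 2, at 2.50 against -0.63 in the first stretch. The probe at 35825863, beyond Zfp619, read 1.72, 1.81, 2.04 and 1.31 in lymphoma mice 3, 4, 5 and 7, against -1.25, -1.14 and -1.76 in the arrays labelled no-lymphoma 1, 8 and 12, and had the opposite sign to the first stretch in 13 of 13 arrays. At the far end of the block the probe at 37326614 and those of Gm4884 (37315710) and AK007160 (37338429) had the same sign as the first stretch in 13 of 13 arrays, with SDs of 0.70, 0.41 and 0.53.

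In all, 17 of the 217 members outside the stretches kept 1 relation to the first stretch in 12 or 13 of the 13 arrays, 9 with the same and 8 with the opposite sign. That is 7.83%, against 1.1% of all autosomal probes (0.53% same, 0.574% opposite). In the 10 of the 13 arrays other than those labelled no-lymphoma 3, 4 and 9, 16 of the 217 (7.37%) kept 1 relation in every array, against 0.386% of autosomal probes. The first stretch belongs to the same selected block, so nothing is read from these shares. The variable probes at 34944415 and 36491274 were not among them. The first read 1.17 and 1.28 in lymphoma mice 6 and 7, and -1.17 and -1.45 in lymphoma mice 2 and 5. The second read 1.25 in lymphoma mouse 5 and -1.52 in lymphoma mouse 6.

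Set beside the rest of the genome, the 1600014C10Rik stretch had one of the larger SDs among runs of probes. The same rule gave 74 stretches on all autosomes, and 36 of them had an array at 1 or more and another at -1 or less. Ranked by the SD of the stretch mean, the 1600014C10Rik stretch (SD 1.80) came in place 2, the stretch beyond Pop4 (1.22) in place 9 and the stretch before Zfp619 (0.95) in place 25. An array at 2 or more together with one at -2 or less was found in 6 stretches, 2 of them in the block. The block was picked on these ratios, so nothing is read from these places. Many of the 74 runs are neighbours on chromosome 14, and a run holds 3 to 289 probes, so the runs are not separate regions of like size. The places also rest in part on the arrays labelled no-lymphoma 3, 4 and 9. With the sign of these arrays turned in the same 74 stretches, chosen after seeing the data, the 3 stretches came in places 4 (SD 1.59), 18 (1.10) and 33 (0.88). Without these arrays they came in places 4, 19 and 41 (SD 1.51, 1.08 and 0.79). Under either setting 4 stretches reached both 2 and -2, and 0 of them lay in the block. Outside the block, no stretch followed the 1600014C10Rik stretch over the 22 arrays with an r above 0.68 in size, and within it r was -0.75 for the stretch beyond Pop4 and -0.80 for the stretch before Zfp619. With the sign turned these were 0.59, -0.69 and -0.76. These correlations share arrays, scan days and noise and describe these arrays only.

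Among single genes outside chromosome 7, with at least 3 probes and an SD of 0.5 or more, the most alike in size of r were Gcat (-0.65), AK129406 (-0.65), Fbxo28 (-0.63), Smarcd1 (-0.63), Scyl3 (-0.63) and Gjb6 (0.61), of 204 such genes over 22 arrays. AK005966, AK144249, AK014062 and AK220569 completed the 10, at 0.56, -0.55, 0.51 and 0.49. AK129406, Fbxo28 and Scyl3 lie on chromosome 1, Gcat and Smarcd1 on chromosome 15, and AK005966 and AK014062 on chromosome 12. The 10 are therefore not 10 unlinked genes. With the sign of the arrays labelled no-lymphoma 3, 4 and 9 turned, r was -0.53 to 0.49 in these 10 genes, and 0.26 to 0.53 in size, so that the likeness rests in part on those arrays.

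Genes related by function to Pop4 or by name to Zfp619 were set beside them. Of 13 genes for subunits or RNAs of RNase P and RNase MRP, 9 were measured. Limma called 1 of them higher and 0 lower in lymphoma mice, against 5.08% of autosomal genes called higher and 1.18% called lower. The gene called was Pop1, the large subunit gene on chromosome 15, whose mean was 0.45 ± 0.30 in lymphoma and -0.03 ± 0.20 in no-lymphoma mice (lymphoma minus no lymphoma 0.47, limma adjusted p = 0.0049). The median difference of the 9 genes was 0.15, against 0.05 over all 24618 autosomal genes. Of 76 zinc finger genes of chromosome 7, limma called 2 higher and 1 lower, against the same 5.08% and 1.18% of autosomal genes. Nothing is read from these counts. An SD of 0.5 or more over arrays was found in 3 of the 76 (3.95%). It was found in 1.69% of 178 zinc finger genes of other autosomes and in 5.36% of all autosomal genes. Zfp619, with an SD of 0.21, was not among the 3.

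The variable probes did not stand apart in base composition. They held 37.8 ± 4.4% G and C (SD over 18 probes), against 37.0 ± 2.3% in the other 210 members and 36.6% over all autosomal probes. A run of 16 bases shared with another probe of the array was found in 8 of the 18 (44.4%) and in 122 of the 210 (58.1%). No member contained AGCT or GTAC, the sites at which AluI and RsaI cut the DNA before labelling, and 77 of the 220065 autosomal probes did.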

How the data were processed

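Per the labels' protocols, DNA was digested (AluI, RsaI) and Klenow-labelled. The deposited scanner files hold spot intensity for both channels, background-subtracted and dye-normalised by Feature Extraction 9.1.3.1, per the file headers (9.1 in the submitters' processing notes). The deposited log10 ratios of the value table equalled the scanner files' log ratios of red over green (largest difference 0), with column medians from -0.0209 to 0.0173, so scale, centring and direction are known.

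Log2 ratios of the processed intensities were computed here, without control and outlier spots, averaged per probe and centred on the autosomal median of each array, with no loess or quantile step. Lymphoma was compared with no lymphoma by limma 3.58.1 in R 4.3.3 over all autosomal probes, or all autosomal genes (means of their probes), with Benjamini-Hochberg adjustment, tested on simulated data. Tables were handled in Python 3.11.15 with numpy 2.4.6 and pandas 2.3.3. Each array is 1 mouse, mouse numbers follow accession order, and precision is limited by how many arrays there are. Gene names come from the files, updated through RefSeq (GRCm38.p6, names only). In the block 7 names matched a symbol, 4 a synonym, and 11 stayed as in the files.

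The members and lists were chosen with earlier results of these data known. Named genes are those with a probe in or next to a stretch, 8 listed genes (Ccne1, Uri1, Plekhf1, Pop4, Tshz3, Zfp536, Zfp619 and 1600014C10Rik), and the 10 genes most like the first stretch. Vstm2b, AK039356, AK181724, Gm4884, AK007160 and Pop1 were named after their values were seen. Alternatives were centring on the mode, normexp (offset 50) on median spot signals (mean signals are not in all the files used), other limits, scan batch terms, and leaving out or turning arrays.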

Additional observations from a re-analysis of the deposited data

Results flagged for a closer look

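In the lymphoma group, 1 of 19 items had a value far from the others by Dixon's criterion, which chance gives in about 1 of 20. At the probe at 35325981, named AK005849, lymphoma mouse 3 read 1.33, while the other 7 lymphoma mice read -0.02 to 0.62, so that the gap to the nearest was 0.529 of the range. In the no-lymphoma group, which is too large for this criterion, the probe read -1.75 to 0.61.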

How the results depend on the processing

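The number of arrays, scan batches that hold 1 group, and the dim stretch beyond Pop4 limit these results. No paired analysis was made, because the numbers given to the mice here pair no samples. The labels also carry mouse numbers of their own, which were not used here to relate mice to each other. Of 39 recomputed differences 30 kept their direction, but 15 of these were smaller by over 1.5 times and 9 turned, and 15 of 35 recomputed counts stayed within 1.5 times; the cause was not tested. The -1.32 of the first stretch was -0.27 with the sign turned and -0.03 within batch 5, and the 0.90 and 0.86 of the others were 0.11 and 0.14 with normexp. Member calls by limma, of 228 members, were 1 with mode centring, against 3.43% of autosomal probes called in that setting. They were 0 with normexp (20 at an unadjusted p under 0.05), against 2.19%. With scan batch as a term they were 0 (6 unadjusted), against 1.05%. They were 1 with the 5 arrays under 0.5 at the Atm probe left out, against 1.53%. With the sign turned for the arrays labelled no-lymphoma 3, 4 and 9 they were 10, against 6.26%. Nothing is read from these counts. With those 3 arrays left out or turned, a choice made after seeing the data, the 1600014C10Rik stretch was high (1 or more) in 1 and 1 arrays against 4, and low (-1 or less) in 4 and 7 against 4. The low counts of the other 2 stretches were 2 each under both settings, against 4. With a state limit of 0.5, 7 arrays were low in the first stretch and 7 high in the stretch beyond Pop4 (4 each at 1). With normexp the stretch beyond Pop4 was high in 1 and low in 0 arrays, and the stretch before Zfp619 high in 0 and low in 0, against 4, 4, 5 and 4. Variable probes numbered 32 at an SD limit of 0.5 and 11 with normexp, against 18. Differences turned with the scan batch block to 0.10, -0.36 and -0.10 in chromosome order. Within batches they turned to 1.30 (first stretch, batch 3), to -1.28, -0.18 and -0.41 (beyond Pop4, batches 1, 3 and 5), and to -0.62 and -0.15 (before Zfp619, batches 1 and 5). Without the arrays labelled no-lymphoma 5 and 6, chosen after seeing the data, the differences were -1.87, 1.05 and 1.01.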
